A study of Rattus norvegicus with 18 samples.

Results

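Rat lungs taken 20 h after the last exposure session were compared with lungs taken 2 h after it. The comparison used 12 of the 18 arrays of the series, chosen by the recovery time in their titles: 6 arrays at 20 h and 6 at 2 h, with the 6 arrays at 6 h shown as a midpoint and used in the estimate of the spread. All animals were male Sprague-Dawley rats restrained for nose-only inhalation 2 h a day, 5 days a week, over 13 weeks. They were sham-exposed or inhaled mainstream smoke of the reference cigarette 2R4F at concentrations of 300 or 600 µg/l, counted as total particulate matter (TPM). RNA of each of the 9 conditions went once onto an Affymetrix array of type A and once onto one of type B. The probe sets of the 2 types differ apart from a small shared set, so each recovery time has 3 arrays per type, matched by exposure. No genotype, genetic alteration or animal age is given in the labels, and the number of animals behind an array is not stated. The labels also give no hour of day for the session or for dissection, so time since the session and time of day cannot be told apart in any value that follows.

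Inhaled smoke brings aromatic hydrocarbons into the lung that bind the aryl hydrocarbon receptor (AhR), a ligand-activated transcription factor that switches on detoxifying cytochrome P450 and dehydrogenase genes and that loses its drive once the ligands are metabolised. Oxidants and reactive aldehydes in smoke free the transcription factor NRF2 from its inhibitor, and NRF2 then switches on glutathione and thioredoxin genes. The lung also has a circadian clock, a loop in which BMAL1 with CLOCK or NPAS2 drives the Per, Cry and Rev-erb (Nr1d1, Nr1d2) genes, whose products repress the loop, and clock genes in many tissues also respond to feeding, body temperature and glucocorticoid hormone. Heat shock genes, which encode chaperones, respond to heat and to damaged protein.

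Signals are the authors' linear array intensities, and triples of values are given in the order sham, 300 and 600 µg/l. Changes are 20 h minus 2 h of log2(signal + 50), which understates the change of dim genes. In all, 19638 probe sets were tested, and 10162 genes are represented by their brightest probe set. Tests are limma fits with Benjamini-Hochberg adjustment over both array types and a threshold of 0.05. With 1 array per condition, the spread behind each SE is that between exposures, a p-value covers no more than the scatter among these arrays, and the change in sham alone rests on 1 array against 1 and has no test. In bulk lung RNA, fewer cells of a type and less RNA per cell cannot be told apart.

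Some labels and arrays need naming first. A characteristic of the 4 smoke arrays at 20 h reads sham, although their title and source name smoke. Signals of Chia, the acidic chitinase gene, which was high in the smoke arrays at 2 h (1493, 6297 and 7385), were 1643, 4857 and 7358 at 20 h, low in the array titled sham and high in those titled smoke, and titles were used. On type B, the array labelled sham at 2 h resembled the one labelled 300 µg/l at 2 h: the correlation of their deviations from the mean array was 0.56 across probe sets, where none of the other 35 B pairs exceeded 0.12, and their log2 signals differed with an SD of 0.24, against 0.33 to 0.44. For 1418 genes present on both types, its deviations correlated with those of the A array labelled sham at 2 h at r = 0.017. With those of the A array labelled 300 µg/l at 2 h, they correlated at r = 0.093. For 7 of the 9 B arrays, the A array of the same label gave the highest correlation. The exceptions were this array and its 300 µg/l counterpart at 2 h. For both, the highest correlation was with the A array labelled 600 µg/l at 2 h (r = 0.099 and 0.12). The 300 µg/l counterpart gave r = 0.091 with the A array of its own label. The antioxidant gene Srxn1, present on both types, read 138, 321 and 484 at 2 h on type A, lowest in sham, and 654, 649 and 765 on type B, where sham was not set apart. Genes are not independent replicates, so these correlations are descriptions. The 2 h arrays of type B also stood apart together: all 3 lay above or below all 6 later arrays for 10.2% of B probe sets, against 4.62% on type A, while the same share was 2.05% and 2.43% for the 6 h arrays and 2.69% and 2.33% for the 20 h arrays. Of the probe sets at least 2-fold apart between the matched 20 h and 2 h arrays, without replicates, there were 305 in sham (1.55%), 304 at 300 µg/l (1.55%) and 218 at 600 µg/l (1.11%), of which type B held 279, 253 and 175. Fits on type B are therefore also given without the array labelled sham at 2 h, called the doubtful array here. In a triple of changes on type B, it enters the sham value only, and the values at 300 and 600 µg/l do not use it. The tissue label was borne out by the surfactant gene Sftpc, among the brightest genes of the lung's alveolar type 2 cells, at signals of 15855 to 18566 over all 9 A arrays.

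The calls with the smallest adjusted p were AhR-induced genes that fell from 2 h to 20 h in the smoke-exposed lungs, while the sham changes of these genes lay between -0.43 and 0.24. Cyp1a1, the P450 that oxidises aromatic hydrocarbons, fell by 5.15 on the log2 scale in the smoke arrays (SE 0.13, 35.5-fold, adjusted p 9.49e-07, 2 exposures). Aldh3a1, an aldehyde dehydrogenase, fell by 3.51 (SE 0.21, adjusted p 0.00075). Cyp1b1, a second hydrocarbon-oxidising P450, fell by 1.97 (SE 0.17, adjusted p 0.00447), and the quinone reductase gene Nqo1, a target of both AhR and NRF2, fell by 1.78 (SE 0.12, adjusted p 0.00124). All of these are on type A. In the 2 smoke exposures together, 10 probe sets passed, 0.0509% of those tested, 3 higher and 7 lower, all 10 on type A.

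The arrays behind these changes were far apart. Cyp1a1 read 154, 8795 and 9463 at 2 h, 111, 2789 and 2122 at 6 h and 102, 209 and 207 at 20 h. Both smoke arrays were far above sham at 2 and 6 h, and at 20 h they were still above the sham array, by much less than before. Aldh3a1 read 68.4, 1225 and 1747 at 2 h and 89.8, 107 and 63.0 at 20 h, where the 600 µg/l array was the lowest of the 3 and all were under the signal of 183.8 that a probe set on type A had to reach in 3 arrays to be tested. Its fold is for that reason a fold on the log2(signal + 50) scale only. Cyp1b1 read 474, 2008 and 2725 at 2 h, 408, 571 and 757 at 6 h and 437, 570.4 and 547 at 20 h. Nqo1 read 1234, 4750.5 and 5959 at 2 h, 1394, 3478 and 3557 at 6 h and 1389, 1413 and 1616 at 20 h. The courses differ in pace: by 6 h Cyp1b1 had come near its 20 h level, whereas Nqo1 was still between its 2 h and 20 h levels in both smoke exposures. The difference in pace was not tested.

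**Figure D1:**
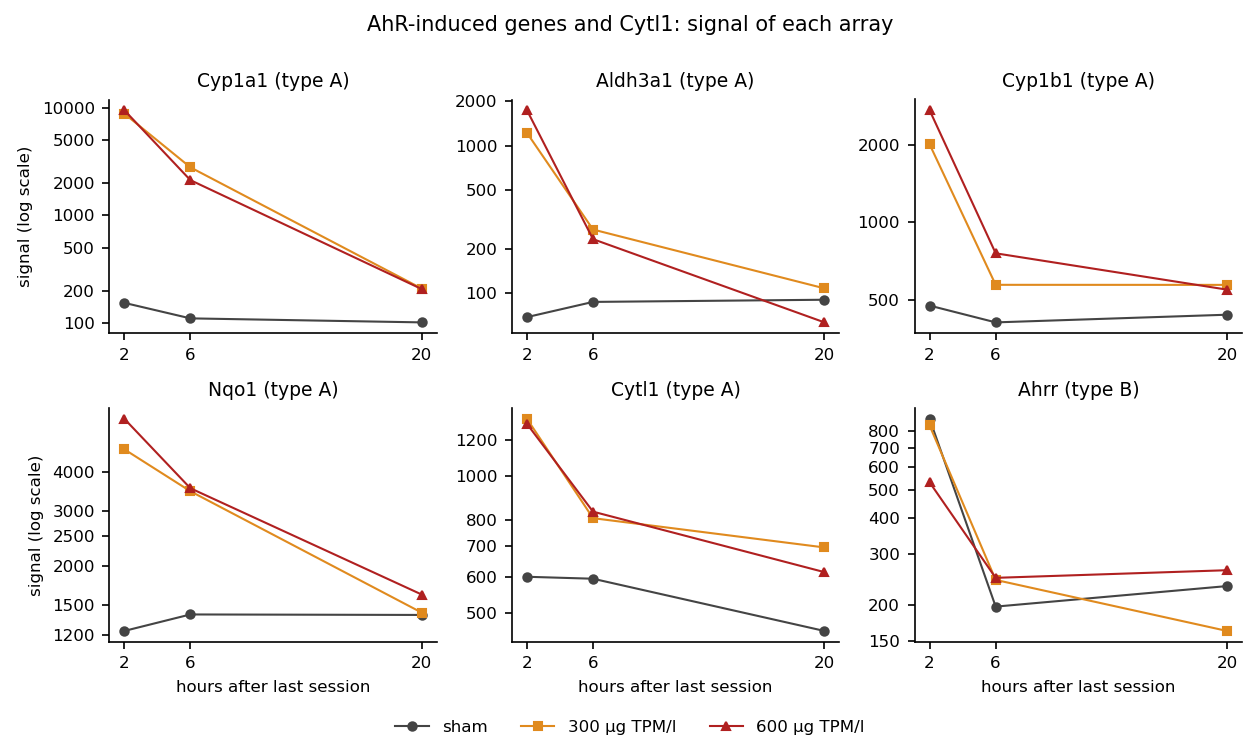
Array signal (log scale) of 6 genes against hours after the last session, 1 point per array, joined within each exposure (sham, 300 and 600 µg TPM/l). The smoke lines of Cyp1a1, Aldh3a1, Cyp1b1 and Nqo1 drop towards the sham line by 20 h, while Ahrr on type B starts high on the array labelled sham as well.

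The change of the smoke-exposed lungs differed from that of sham for 2 probe sets, 0.0102% of those tested. For Cyp1a1 the smoke change was -4.72 relative to the sham change (SE 0.23, adjusted p 0.000228), and for Aldh3a1 -3.74 (SE 0.37, adjusted p 0.0413). Aldh3a1 reached the filter level in the smoke arrays at 2 and 6 h only, and Cyp1a1 in its smoke arrays only. No sham array of either gene reached it (154, 111 and 102 for Cyp1a1 at 2, 6 and 20 h). Both genes thus entered the test through the arrays where they are high. Their differences are taken against sham signals below that level. Nqo1 missed the threshold narrowly, at -1.95 (SE 0.21, adjusted p 0.0545), and Cyp1b1 gave -1.87 (SE 0.29, adjusted p 0.433). The SE of these differences comes from the spread between 300 and 600 µg/l and holds no measured variation among sham arrays. Side by side, the changes in sham, 300 and 600 µg/l were -0.43, -5.09 and -5.21 for Cyp1a1, 0.24, -3.02 and -3.99 for Aldh3a1, -0.11, -1.73 and -2.22 for Cyp1b1 and 0.17, -1.71 and -1.85 for Nqo1. In each of them the 2 smoke exposures lay together and sham lay apart, nearer 0. The test over all 3 exposures, whose spread includes the sham change, called none of them (adjusted p 0.134 to 0.207). The difference of Cyp1a1 passed in limma without any one exposure at a time that could be left out. That of Aldh3a1 did not pass without the 300 or 600 µg/l arrays at 2 h, the 300 or 600 µg/l arrays at 6 h or the 600 µg/l arrays at 20 h (adjusted p 0.0643 to 0.228).

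Of 10 measured genes of the AhR list, 6 were lower in the smoke arrays at an unadjusted p under 0.05, against 4.09% of all genes, and 4 passed after adjustment. The median change of the list was -0.013 in sham, -1.05 at 300 µg/l and -0.68 at 600 µg/l, against -0.0047, -0.0015 and 0.0022 for all genes. Ahrr, the AhR repressor, is itself switched on by the receptor and is carried on type B, where it read 885, 839 and 533 at 2 h and 233, 163 and 264 at 20 h. The array labelled sham was the highest of the 3 at 2 h. Its change over all exposures was -1.56 (adjusted p 0.0556), and -1.41 without that array (adjusted p 0.219). Tiparp, an ADP-ribosyltransferase gene that AhR also induces, went the other way, with signals of 849, 869.6 and 1384 at 2 h and 1143, 1157 and 1496 at 20 h and a change of 0.30 (adjusted p 0.379). Tiparp is on type B as well, and its change was 0.28 without the doubtful array and 0.067 for its probe set on type A.

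The AhR complex binds DNA at the xenobiotic response element, whose core is GCGTG. RefSeq promoter windows of 300 bases, from 250 before to 50 after the start of the gene (build GRCr8), were at hand for 8 of the 10 genes, and 6 of these 8 (75%) held the core on either strand, against 29.7% of 33469 windows. The 8 include the genes of the receptor itself (Ahr) and of its partner (Arnt), and Arnt is among the 6 with the core. The windows of Cyp1b1 and Nqo1, called above, are shown with each core in capitals (CACGC is the core on the opposite strand). Cyp1b1 is at chr6:21094315-21094614, plus strand, and Nqo1 at chr19:52220218-52220517, minus strand.
Cyp1b1: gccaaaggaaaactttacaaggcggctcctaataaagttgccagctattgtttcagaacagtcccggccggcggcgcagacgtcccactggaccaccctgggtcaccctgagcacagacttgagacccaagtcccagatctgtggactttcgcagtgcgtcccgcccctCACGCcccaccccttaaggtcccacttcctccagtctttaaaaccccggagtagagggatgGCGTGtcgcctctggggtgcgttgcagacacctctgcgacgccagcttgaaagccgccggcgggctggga
Nqo1: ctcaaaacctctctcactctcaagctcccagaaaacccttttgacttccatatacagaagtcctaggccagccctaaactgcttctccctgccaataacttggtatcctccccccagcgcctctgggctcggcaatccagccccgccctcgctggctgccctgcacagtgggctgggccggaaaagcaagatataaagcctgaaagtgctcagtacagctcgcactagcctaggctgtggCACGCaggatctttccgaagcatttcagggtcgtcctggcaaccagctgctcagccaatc
Cyp1b1 holds 2 cores, 81 and 20 bases before the start, and Nqo1 holds 1, 10 bases before it. A match to 5 letters is a description of the window and not of binding.

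Outside the AhR list, Cytl1, which encodes a small secreted cytokine-like protein, fell by 0.96 in the smoke arrays (SE 0.10, adjusted p 0.0208). It read 599.5, 1334 and 1300.1 at 2 h and 456, 695 and 614 at 20 h, so it was lower at 20 h in the sham array as well as in both smoke arrays. Its smoke change differed from the sham change by -0.60 (adjusted p 1), which did not pass. Maob, the monoamine oxidase B gene, rose by 0.94 in the smoke arrays (SE 0.092, 1.92-fold, adjusted p 0.0121). One of 2 probe sets of Kif26b, a kinesin family gene, also rose, by 1.11 (SE 0.13, adjusted p 0.0319), while its brighter probe set gave 0.75 (adjusted p 0.208). The called probe set of Kif26b read 134 and 161 in the smoke arrays at 2 h, under the filter level of type A. The size of its rise is for that reason a description. The other 3 calls were probe sets with no single gene symbol in the annotation. The count of calls in the smoke arrays was 5 without the 300 µg/l arrays at 2 h, 4 without the 600 µg/l arrays at 2 h, 3 without the 300 µg/l arrays at 20 h and 6 without the 600 µg/l arrays at 20 h. Other genes lower in both smoke exposures did not pass: Osgin1, an NRF2 target, at -1.27 (adjusted p 0.0759), Por, which encodes the reductase that feeds electrons to P450 enzymes, at -0.65 (adjusted p 0.0759), the stress gene Ier3 at -0.70 (adjusted p 0.0816) and the endothelial adhesion gene Pecam1 at -0.72 (adjusted p 0.0759).

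Over all 3 exposures, 10 probe sets passed, again 0.0509%, with 6 higher and 4 lower at 20 h; 1 was on type A and 9 on type B, and 6 had no single gene symbol. The type A call was Maob, whose enzyme breaks down phenylethylamine and other amines. It read 1298, 939 and 978 at 2 h, 2042, 1811 and 1852 at 6 h and 1885, 1803 and 1971 at 20 h. Every 20 h array was above every 2 h array, and so was every 6 h array. The change was 0.80 (SE 0.095, 1.74-fold, adjusted p 0.0299), higher in 3 of 3 exposures.

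The named calls on type B were Cyp26b1, Rnf141 and Ms4a7. Cyp26b1, the P450 that degrades retinoic acid, read 488, 548 and 621 at 2 h, 631, 569 and 1328 at 6 h and 1635, 2321 and 2288 at 20 h. Its 20 h arrays were all above its 2 h arrays, with a change of 1.81 (SE 0.19, 3.51-fold, adjusted p 0.0294). Rnf141, a RING finger protein gene, read 1566, 1624 and 1832 at 2 h and 2781, 3271 and 2994 at 20 h, a rise of 0.83 (SE 0.096, adjusted p 0.0299), while its dimmer probe set gave -0.087 (adjusted p 0.879). Ms4a7, a membrane protein gene of the MS4A family that macrophages express, read 607, 515 and 474 at 2 h, 52.5, 142 and 69.2 at 6 h and 27.8, 47.2 and 38.1 at 20 h. It fell by 2.73 (SE 0.35, adjusted p 0.0351) to signals far under the 238.7 that a type B probe set had to reach in 3 arrays. Only its 3 arrays at 2 h reach that level, so it entered the test through the group where it is high and the size of its fall, taken to signals below that level, is a description. Without the array labelled sham at 2 h the changes were 1.89, 0.84 and -2.50, with adjusted p of 0.135, 0.137 and 0.235, and no probe set on either type passed.

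The call count of this comparison rests on single libraries. With limma it was 0 without the 300 µg/l arrays at 2 h or at 20 h (1275 and 1610 probe sets had an unadjusted p under 0.05), 1 without the 600 µg/l arrays at 20 h, 4 without the sham arrays at 20 h and 6 without the 600 µg/l arrays at 2 h. It was 17 without the sham arrays at 6 h and 18 without the 300 µg/l arrays at 6 h. Without the doubtful array it was 0 in limma, with 1587 probe sets at an unadjusted p under 0.05. In the full set 2247 probe sets had an unadjusted p under 0.05, 818 on type A and 1429 on type B.

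**Figure D2:**
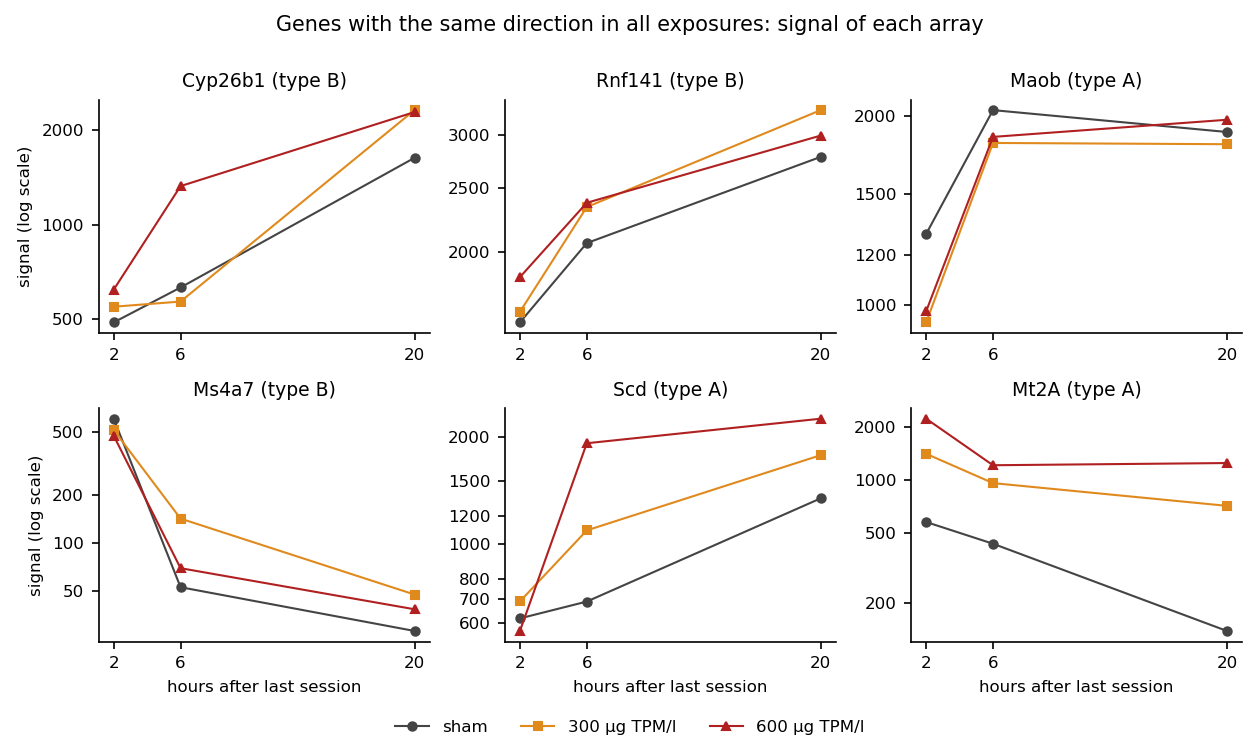
Array signal (log scale) against hours after the last session for 3 genes called on type B, Maob (called on type A), Scd and Mt2A, 1 point per array, joined within each exposure. Cyp26b1, Rnf141, Maob and Scd end above their 2 h values in every exposure, and Ms4a7 and Mt2A below them.

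The groups of genes that follow are described by their signals, by the number of members with an unadjusted p under 0.05 over all 3 exposures, and by the median change. Among all genes, 5.85% were higher and 5.22% lower at 20 h at that p, the median was 0.00095, 17.8% were higher in all 3 exposures, 17.8% were lower in all 3, and for 8.46% and 8.52% all 20 h arrays lay above or below all 2 h arrays. None of the list members named from here on passed after adjustment, and each change is therefore given as a value.

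**Figure D3:**
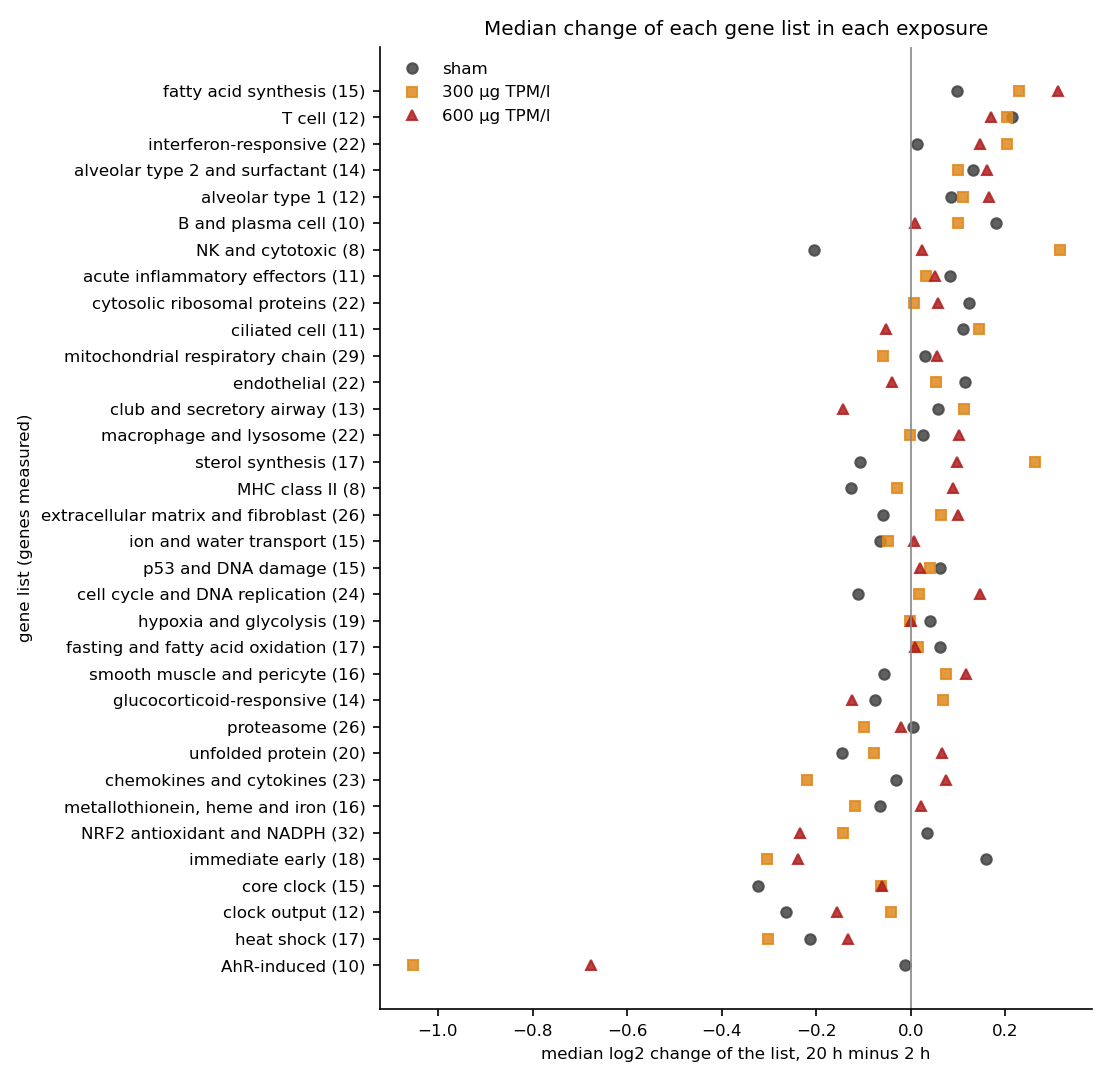
Median log2 change (20 h minus 2 h) of each gene list with at least 8 measured genes, 1 point per exposure; the count of genes stands beside the list's name and the line marks 0. The AhR list is far below 0 at 300 and 600 µg/l and near 0 in sham, while the heat shock list is below 0 and the fatty acid synthesis, T cell and alveolar lists above 0 in all 3.

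Several heat shock genes were lower at 20 h, in sham as well as in smoke. These genes encode chaperones, such as HSP70 and its HSP40 partners, that refold proteins and are switched on by the heat shock factor HSF1 under heat and other protein-damaging stress. Of 17 measured members, 8 were lower and 1 higher at an unadjusted p under 0.05, 10 were lower in all 3 exposures, and for 9 every 20 h array lay below every 2 h array. The median change was -0.21 in sham, -0.30 at 300 µg/l and -0.13 at 600 µg/l. Without the doubtful B array 7 were lower at that p.

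Hspa1a, the stress-inducible HSP70 gene, read 1359, 2028 and 1363 at 2 h, 731, 729.8 and 1026 at 6 h and 736, 829 and 749.8 at 20 h. The highest array at 20 h was below the lowest at 2 h, and the change was -0.97 (adjusted p 0.0642). Dnaja1, an HSP40 co-chaperone gene, read 1667, 2221 and 1677 at 2 h and 1060.0, 1049 and 1276 at 20 h, a change of -0.69 (adjusted p 0.0686), and its dimmer probe set gave -0.61. Chordc1, an HSP90 co-chaperone gene, read 676, 786 and 638 and 408, 466 and 469, a change of -0.59 (adjusted p 0.0917). In each of the 3 the arrays of the recovery times did not overlap, and the sham array was lower at 20 h as the smoke arrays were. Stip1, which links HSP70 to HSP90, changed by -0.30, -0.55 and -0.32 in the 3 exposures (adjusted p 0.193), Dnajb1 by -0.21, -0.44 and -0.45 (adjusted p 0.219) and the small heat shock protein gene Hspb8 by -0.25, -0.34 and -0.65 (adjusted p 0.251), with -0.14 over all exposures for the dimmer probe set of Hspb8. Hsph1, the HSP110 gene, was measured on both types: the changes were -0.78, -0.67 and -0.42 on type B and -0.59, -0.50 and -0.45 on type A, lower in all 3 exposures on both. Bag3, a further HSF1 target, changed little (-0.096, -0.19 and 0.036).

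Of the 17 list members, 2 were higher in all 3 exposures, and 1 of these was higher at an unadjusted p under 0.05. That gene was Cirbp, whose product is an RNA-binding protein induced by mild cold and lowered by heat. On type B it read 1168, 1066 and 1114 at 2 h and 2198, 2282 and 1745 at 20 h, above the 2 h arrays in every exposure, with a change of 0.86 (adjusted p 0.053) and of 0.81 without the doubtful array (adjusted p 0.205). A second probe set on type B gave 0.99, while one on type A, dimmer at 209 to 401, gave 0.11. In the 3 exposures the type A probe set changed by -0.12, 0.059 and 0.38. Probe sets of this gene thus disagree in size between the array types, and in sham also in direction. The sham values on type B use the doubtful array.

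**Figure D4:**
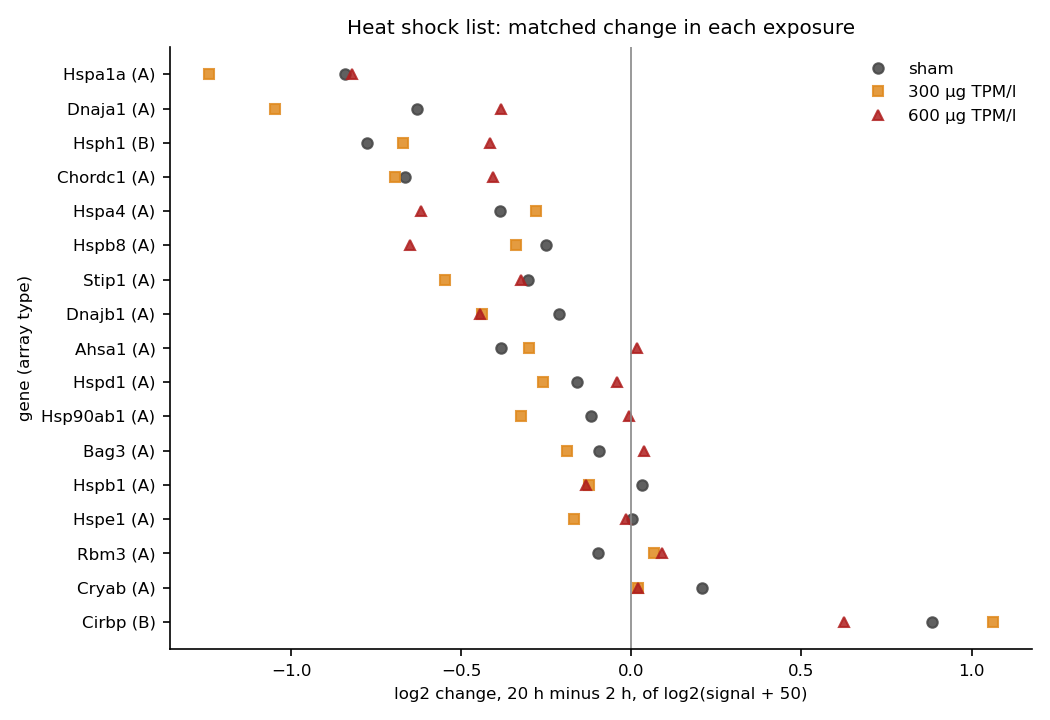
Log2 change (20 h minus 2 h) of the 17 measured heat shock list genes, 1 point per exposure, ordered by the mean change; the letter gives the array type and the line marks 0. The 8 genes at the top lie left of 0 in sham and in both smoke exposures, and Cirbp lies to the right.

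HSF1 binds inverted GAA repeats. The 8-letter form GAANNTTC, a motif searched for after the values were seen, was present in the RefSeq windows of 9 of 16 heat shock list genes (56.2%), against 8.59% of all windows. Hspd1 and Hspe1 have overlapping windows on opposite strands, and 1 site counts as a match in both. The windows of Chordc1, Dnaja1 and Dnajb1 are shown as examples with 2 matches each among the genes that were lower at 20 h in all 3 exposures; matches are in capitals. They lie at chr8:23650571-23650870 (plus strand), chr5:60638154-60638453 (plus strand) and chr19:41431092-41431391 (minus strand).
Chordc1: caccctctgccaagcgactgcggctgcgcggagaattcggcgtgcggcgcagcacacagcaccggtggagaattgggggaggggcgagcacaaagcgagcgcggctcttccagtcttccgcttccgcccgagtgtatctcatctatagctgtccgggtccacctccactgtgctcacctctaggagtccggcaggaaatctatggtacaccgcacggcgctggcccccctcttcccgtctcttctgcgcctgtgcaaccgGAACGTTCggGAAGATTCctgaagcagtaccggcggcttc
Dnaja1: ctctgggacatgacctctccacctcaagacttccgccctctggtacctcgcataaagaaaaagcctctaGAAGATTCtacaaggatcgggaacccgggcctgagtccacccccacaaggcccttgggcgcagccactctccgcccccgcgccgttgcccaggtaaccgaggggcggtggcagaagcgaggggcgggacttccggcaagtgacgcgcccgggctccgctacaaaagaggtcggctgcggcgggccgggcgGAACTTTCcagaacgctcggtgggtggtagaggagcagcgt
Dnajb1: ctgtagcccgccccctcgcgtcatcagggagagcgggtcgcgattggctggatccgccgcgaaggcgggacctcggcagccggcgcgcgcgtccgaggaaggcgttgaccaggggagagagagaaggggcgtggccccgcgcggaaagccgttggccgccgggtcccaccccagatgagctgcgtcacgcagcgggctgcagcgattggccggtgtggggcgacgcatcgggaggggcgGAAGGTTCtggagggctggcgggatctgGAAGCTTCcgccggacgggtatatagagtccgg
Of the other genes lower at an unadjusted p under 0.05, Hspb8 and Hsph1 have 1 match each, and Hspa1a, Hspa4 and Stip1 have none in this form.

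Genes of the unfolded protein response, which handles misfolded protein in the endoplasmic reticulum, differed less as a group. Of 20 members, 3 were lower and 0 higher at an unadjusted p under 0.05, with a median of -0.046. Ddit3, the gene of the stress transcription factor CHOP, was even across exposures, with signals of 365, 423 and 440.2 at 2 h and 239.5, 287 and 291 at 20 h and a change over all exposures of -0.51 (adjusted p 0.0963). The changes in the 3 exposures were -0.52, -0.49 and -0.52. Its inducer gene Atf4 changed by -0.072, -0.46 and -0.26, mostly in the smoke arrays, and Manf, a secreted factor of the same response, by -0.57, -0.39 and -0.041, mostly in the sham and 300 µg/l arrays.

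No clock gene passed over all exposures, in the smoke arrays or in the difference between smoke and sham. The signals of several of them were nevertheless far apart between sham and smoke at 20 h, with 1 sham array at each time. Per3, a clock repressor gene on type B, read 579.7, 489 and 759 at 2 h, 1026, 666 and 304 at 6 h and 73.0, 809 and 724 at 20 h. The sham array at 20 h was far below the smoke arrays of that time, and the sham change of -2.36 stood against 0.67 and -0.065. The difference of the smoke from the sham change was 2.66 (SE 0.54, adjusted p 0.806). The sham change uses the doubtful array at 2 h, and the sham array at 20 h was the lowest of the 9 arrays. That array was also under the filter level of type B, so the size of the sham change is a description. Nr1d1, the Rev-erb alpha gene that represses Bmal1, read 778, 649 and 526 at 2 h, 1522, 496 and 149 at 6 h and 179, 679.7 and 909.7 at 20 h on type A. Sham was the highest of the 3 exposures at 2 and 6 h and the lowest at 20 h, and the difference of changes was 2.25 (SE 0.66, adjusted p 1).

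Other clock genes were also lowest in sham at 20 h. Nr1d2, the Rev-erb beta gene, read 912, 1328 and 1346 at 2 h and 349.7, 1074 and 1288 at 20 h, and Dbp, a PAR bZIP output factor gene driven by BMAL1, read 189, 415 and 446 at 2 h, 1303, 568 and 203 at 6 h and 119.6, 484 and 668 at 20 h. At 20 h the sham signals of Nr1d1 and Dbp were under the filter level of type A. The size of their sham changes is a description. Tef, a relative of Dbp on type B, read 3538, 3391 and 3776 and 2313, 4004 and 3876, and over all exposures its second probe set gave 0.21 against -0.11. Per1 read 409, 222 and 366 at 2 h and 317, 729.8 and 774 at 20 h, changes of -0.32, 1.52 and 0.99, so that both smoke exposures were higher at 20 h and sham lower; the difference was 1.57 (SE 0.36, adjusted p 1). Per2 changed by -0.22, -0.70 and -0.60, with sham at 317 and 266 and the smoke arrays between 550.3 and 1076.

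Bmal1 and its partner gene Npas2 were higher in sham at 20 h than at 2 h, while Clock and Rora were not. Bmal1 read 237, 228 and 172 at 2 h and 331, 239.8 and 181 at 20 h, where sham was the highest of its 9 arrays, and Npas2, on type B, read 944, 833 and 467 and 1305, 678 and 640.3, again highest in sham at 20 h. Their smoke arrays at 20 h, 239.8 and 181 for Bmal1 and 678 and 640.3 for Npas2, lay near the smoke arrays at 2 and 6 h, which were 172 to 231 for Bmal1 and 441 to 833 for Npas2. Clock changed by -0.083, -0.063 and -0.17, with 0.048 over all exposures for its second probe set, and Nfil3, which represses targets of Dbp, by 0.16, 0.033 and 0.0082. Cry1, on type B, was lower at 20 h in all 3 exposures (1307, 1304 and 1260.0 at 2 h, 1071, 830.5 and 799 at 20 h), a change of -0.51 (adjusted p 0.281) and of -0.49 without the doubtful array. Rora, which activates Bmal1, changed by -0.44, -0.028 and -0.43, Cry2 by 0.15, -0.095 and -0.34, Bhlhe40 by -0.37, -0.13 and 0.48, Bhlhe41 by -0.35, -0.23 and 0.24 and Hlf by -0.035, -0.16 and -0.18. For these last 5 the recovery times overlapped, and a second probe set of Rora gave 0.57 over all exposures.

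Of 15 core clock genes, 2 were lower and 0 higher over all exposures at an unadjusted p under 0.05 (1 lower without the doubtful array), and the median change was -0.32 in sham against -0.063 and -0.061 in smoke. Since sham has 1 array a time and the hour of sampling is not given, exposure, hour and the animals sampled cannot be told apart here. Among 12 clock output genes, 3 were lower: Fmo2, a flavin monooxygenase gene abundant in lung (9187, 9499 and 10807 at 2 h, 7335, 7614 and 6215 at 20 h, change -0.48, adjusted p 0.234), Por (-0.20, -0.55 and -0.74, adjusted p 0.308) and the kinase gene Wee1 (-0.54, -0.20 and -0.33, adjusted p 0.35). Fmo2 and Wee1 are on type B, with changes of -0.49 and -0.27 without the doubtful array.

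**Figure D5:**
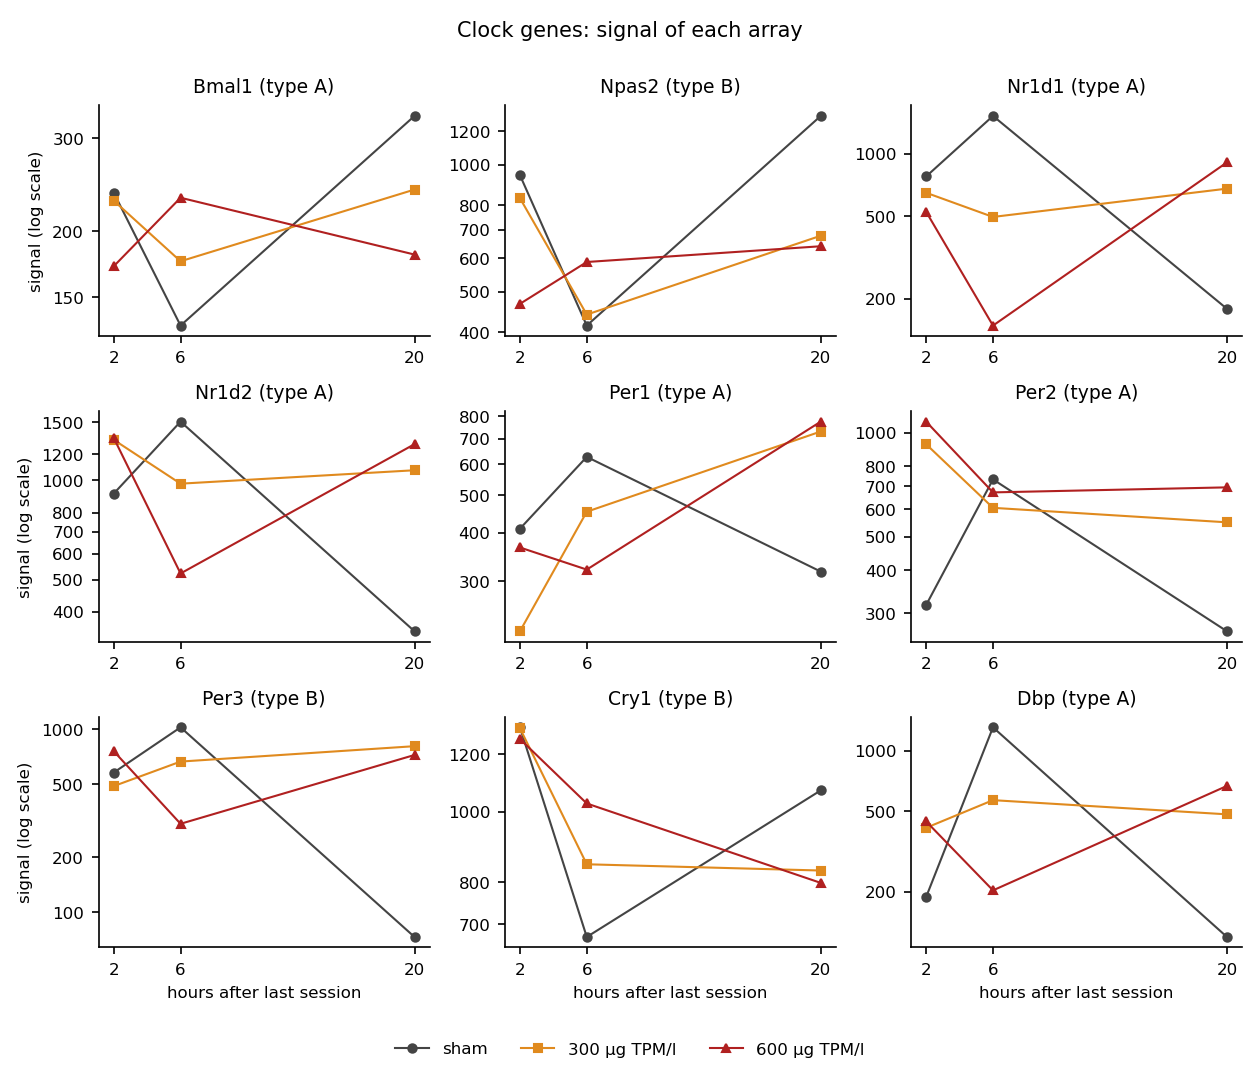
Array signal (log scale) of 9 clock genes against hours after the last session, 1 point per array, joined within each exposure. At 20 h sham is the lowest line for Nr1d1, Nr1d2, Per1, Per2, Per3 and Dbp and the highest for Bmal1, Npas2 and Cry1.

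The clock loop acts through the E-box (CACGTG), the D-box (TTATGTAA or TTACGTAA) and the RORE core (TAGGTCA), searched on both strands. None of the motifs searched here contains another. Windows were at hand for 11 of the 15 core clock genes, of which 2 held an E-box, 1 a D-box and 1 a RORE core, against 6.42%, 1.01% and 2.63% of all windows. Bmal1, at chr1:176766078-176766377 (plus strand), holds a RORE core 16 bases before the start, and Per2, at chr9:99496944-99497243 (minus strand), a D-box 192 bases before it. Both are shown, since Bmal1 and the Per genes had opposite orders of sham and smoke at 20 h.
Bmal1: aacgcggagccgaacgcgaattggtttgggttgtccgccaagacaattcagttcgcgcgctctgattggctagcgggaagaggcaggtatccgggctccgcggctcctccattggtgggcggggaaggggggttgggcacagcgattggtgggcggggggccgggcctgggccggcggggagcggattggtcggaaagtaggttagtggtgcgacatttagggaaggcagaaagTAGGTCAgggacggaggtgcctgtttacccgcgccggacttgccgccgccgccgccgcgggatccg
Per2: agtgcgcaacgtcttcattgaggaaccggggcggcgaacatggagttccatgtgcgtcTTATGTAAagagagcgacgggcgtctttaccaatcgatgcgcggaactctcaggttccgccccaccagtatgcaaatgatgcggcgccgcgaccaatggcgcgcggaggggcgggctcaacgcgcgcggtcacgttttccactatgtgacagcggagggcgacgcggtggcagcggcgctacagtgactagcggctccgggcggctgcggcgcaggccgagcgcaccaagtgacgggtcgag
The windows are short, and a motif absent from these letters may lie elsewhere.

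Several NRF2 targets were lower at 20 h, mainly in the smoke arrays. Of 32 measured antioxidant and NADPH genes, 8 were lower and 1 higher over all exposures at an unadjusted p under 0.05, and 9 were lower in the smoke arrays. The median change was 0.034 in sham, -0.14 at 300 µg/l and -0.24 at 600 µg/l. Hmox1, the heme oxygenase gene, read 455, 762 and 1276 at 2 h and 316, 385 and 648 at 20 h, and it was lower in sham too, with a change of -0.76 (adjusted p 0.148). Txnrd1, the thioredoxin reductase gene, read 1459.5, 1956 and 2487 at 2 h and 1383, 1404 and 1472 at 20 h. Its 3 exposures were thus within 100 signal units of each other at 20 h, after differing at 2 h. Osgin1 read 124, 442 and 682 and 122, 190.5 and 209, with a sham change near 0. Gclc, which catalyses the limiting step of glutathione synthesis, changed by -0.071, -0.54 and -0.63, the glutathione transferase genes Gstp1 and Gsta3 by -0.057, -0.52 and -0.32 and by 0.062, -0.69 and -0.86, while Srxn1 changed by -0.54, -0.45 and -0.57 on type B, where the sham value uses the doubtful array, and by -0.073, -0.46 and -1.23 on type A, where sham was almost level. The 20 h signals of Gsta3 (115.5, 129 and 154) were under the filter level of type A, which it reached in smoke arrays only. No gene of this list passed in the smoke arrays or in the test between smoke and sham. Nqo1, also an NRF2 target, is counted in the AhR list and passed in the smoke arrays.

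Metal and hormone-responsive genes included one with a large change in sham. Mt2A, a metallothionein gene induced by metals and by glucocorticoid, read 579, 1416 and 2243 at 2 h, 436, 964 and 1219 at 6 h and 139, 716 and 1254 at 20 h. It was lower in all 3 exposures, by -1.74, -0.94 and -0.81, and the order of exposures was the same at each time. The change was -1.16 (adjusted p 0.0894). The sham signal of Mt2A at 20 h was under the filter level of type A. Slc39a14, a zinc and iron importer gene on type B, changed by -0.71, -0.24 and -0.43, while its dimmer probe set on type A gave 0.028. Of 16 metal, heme and iron genes, 3 were lower and 0 higher at an unadjusted p under 0.05. Fkbp5, a chaperone gene that glucocorticoid switches on, read 619, 594 and 914 at 2 h and 223, 474 and 669 at 20 h on type B, a change of -0.67 (adjusted p 0.306) and of -0.57 without the doubtful array, with -0.46 for its probe set on type A. Tsc22d3, the GILZ gene induced by the same hormone, changed by -0.52, 0.066 and -0.13, lowest in sham, and Sgk1, a hormone-responsive kinase gene, by 0.17, -0.049 and -0.12. Of 14 glucocorticoid-responsive genes, 2 were higher and 2 lower. The higher ones were Pdk4, a kinase gene that spares glucose in fasting (402, 394 and 345 at 2 h, 590.5, 1147 and 496 at 20 h on type B, and a change of 0.92 without the doubtful array), and Ddit4, an inhibitor of mTORC1, which was higher in the smoke arrays only (-0.014, 1.02 and 0.62). A dimmer probe set of Pdk4 on type A gave -0.20, 0.085 and -0.14. Without the doubtful array 1 gene of the list was lower.

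Immediate early genes, switched on within minutes of a stimulus, had 18 measured members, of which 4 were lower over all exposures at an unadjusted p under 0.05 and 7 in the smoke arrays. The median was 0.16 in sham against -0.30 at 300 µg/l and -0.24 at 600 µg/l. Ier3 read 684, 1196 and 1158 at 2 h and 659.9, 643 and 772 at 20 h, so its smoke arrays were near the sham array at 20 h but not at 2 h. Ccn2, which encodes connective tissue growth factor, changed by -0.070, -0.46 and -0.36, the AP-1 gene Junb by -0.12, -0.23 and -0.46 and the nuclear receptor gene Nr4a3, on type B, by -0.38, -0.53 and -0.20.

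Several fatty acid synthesis genes were higher at 20 h. Of 15 members, 4 were higher and 0 lower at an unadjusted p under 0.05, and the median change was 0.097, 0.23 and 0.31 in the 3 exposures. Scd, the stearoyl-CoA desaturase gene that makes monounsaturated fatty acids, read 619, 690.4 and 571 at 2 h, 689.8, 1092 and 1915 at 6 h and 1343, 1774 and 2244 at 20 h. All 20 h arrays were above all 2 h arrays, and the change was 1.41 (adjusted p 0.0556). The step came between 6 and 20 h in sham and earlier at 600 µg/l, a difference that was not tested. Scd2, a second desaturase gene, read 4287, 4658 and 4364 at 2 h and 5330.2, 6169.5 and 6378 at 20 h (0.42, adjusted p 0.15). Fads1, which desaturates polyunsaturated fatty acids, changed by 0.13, 0.33 and 0.47 and Fasn, the fatty acid synthase gene, by 0.020, 0.33 and 0.42. The dimmer probe set of Fasn gave 0.35, -0.094 and 0.47, slightly lower at 300 µg/l. The sterol synthesis list, by contrast, had 0 of 17 members higher and 0 lower, with medians of -0.11, 0.26 and 0.098. Among 17 genes of fasting and fatty acid oxidation, Pdk4 (on its type B probe set) and Txnip were higher. Txnip, whose product restrains glucose uptake, read 8384, 7970.0 and 6802 at 2 h and 10043, 9459.9 and 8532 at 20 h, with no overlap and a change of 0.28 (adjusted p 0.126).

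Some genes of the alveolar epithelium were slightly higher at 20 h. Of 14 type 2 and surfactant genes, 4 were higher and 0 lower at an unadjusted p under 0.05, 9 were higher in all 3 exposures, and the median was 0.12. Besides Scd and Fasn, these were Lamp3, a lamellar body protein gene (0.20, 0.098 and 0.49), and Lyz2, the lysozyme gene that macrophages also express (0.15, 0.10 and 0.090). Without the 600 µg/l arrays at 20 h 1 gene of the list was higher at that p, and without any one of the conditions at 2 h 2 genes were. With quantile normalization 2 were higher, and over all exposures Lyz2 changed by 0.015 in place of 0.11, and Lamp3 by 0.17 in place of 0.26. Of 12 type 1 genes, 2 were higher: the water channel gene Aqp5 (2575, 2045 and 2028 at 2 h, 3028, 2423 and 2561 at 20 h) and the podoplanin gene Pdpn (0.15, 0.21 and 0.15). The size of these changes, at most 0.33 in any exposure for Aqp5 and Pdpn, is small beside those of the AhR genes.

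Airway genes were mixed. Of 13 club and secretory genes, 2 were higher and 3 lower at an unadjusted p under 0.05. Scgb3a1, a secretoglobin gene on type B, read 5941, 6048 and 7570.2 at 2 h and 2301, 5906 and 3045 at 20 h, where the 300 µg/l array was close to its 2 h value. Its change was -0.89 (adjusted p 0.318) and -0.79 without the doubtful array. Aldh1a1, a retinaldehyde dehydrogenase gene, changed by -0.10, -0.29 and -0.41 and the mucin gene Muc1 by 0.095, 0.25 and 0.48. Of 11 ciliated cell genes, 1 was higher, Tppp3 (0.13, 0.11 and 0.25).

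Vessel and matrix genes differed in both directions. Of 22 endothelial genes, 2 were higher and 3 lower at an unadjusted p under 0.05. Gja4, the arterial gap junction gene, read 1269.7, 759.5 and 608 at 2 h and 1688, 1140.0 and 1045 at 20 h, higher in each exposure by 0.40, 0.56 and 0.73, with lower signals the higher the dose at both times. The adjusted p of Gja4 was 0.113. Emcn, a sialomucin gene of capillaries and veins, was higher by 0.20, 0.56 and 0.39. Pecam1, a junctional adhesion gene, read 1081, 1255 and 1449 at 2 h and 894, 846 and 754 at 20 h, lower without overlap (-0.57, adjusted p 0.147). Cldn5, of endothelial tight junctions, changed by -0.079, -0.41 and -0.23, and Flt1, a receptor for vascular endothelial growth factor, by -0.46, -0.075 and -0.34. Endothelial markers thus lay on both sides of 0, and their summed signal was 68325 to 70989 at 2 h and 65722 to 75311 at 20 h.

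Of 26 matrix and fibroblast genes, 4 were higher and 1 lower. Wif1, a secreted Wnt inhibitor gene, read 1414, 846 and 811 at 2 h and 1793, 1322 and 1361 at 20 h, a change of 0.55 (adjusted p 0.094), larger in the smoke arrays. Fbn1, the fibrillin gene, changed by 0.43, 0.64 and 0.30, but its second probe set, of similar brightness, gave -0.035. Col1a1, a collagen I gene, changed by 0.38, 0.60 and 0.19, and its dimmer probe set by -0.037, 0.069 and 0.39. Loxl1 and Lox, both of which encode enzymes that cross-link elastin and collagen, changed by 0.27, 0.34 and 0.51 and by -0.16, -0.49 and -0.58, in opposite directions. Of 16 smooth muscle and pericyte genes, 2 were higher, Ckb, the brain-type creatine kinase gene (389.8, 347 and 328 at 2 h, 581, 484 and 531 at 20 h, change 0.52, adjusted p 0.126), and Mylk, the myosin light chain kinase gene (0.049, 0.20 and 0.19).

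Few inflammatory genes differed between the recovery times. Of 23 chemokine and cytokine genes, 2 were higher and 2 lower at an unadjusted p under 0.05. The alarmin gene Il33 changed by 0.18, 0.37 and 0.30 (0.090 over all exposures for its other probe set) and the T cell chemokine gene Ccl5 by -0.032, 0.46 and 0.26. The monocyte chemokine genes Ccl2 and Ccl7 changed by -0.45, -1.96 and -0.30 and by -0.21, -0.92 and -0.74. The 300 µg/l array of Ccl2 at 20 h read 39.6, under the filter level. Ccl7 is on type B, and its sham change uses the doubtful array. Its 20 h signals (206, 108 and 235) were all under the filter level. It reached that level only in its 2 h arrays and in the 600 µg/l array at 6 h, so the size of its fall is a description. Cxcl1, a neutrophil chemokine gene, read 521, 1342 and 1401 at 2 h and 781, 702 and 1632 at 20 h, with the recovery times overlapping. Of 11 acute effector genes, 0 were higher and 1 lower, the latter the acute-phase gene Saa3 on type B (-0.68, -0.41 and -0.38, and -0.33 over all exposures without the doubtful array). Chia changed by -0.081 (adjusted p 0.799).

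Neutrophil genes were few above the filter, with 1 of 4 higher and 0 lower at an unadjusted p under 0.05. S100a9, a calprotectin subunit gene, read 968, 2300.1 and 2976 at 2 h and 1033, 2752 and 5161 at 20 h, a change of 0.38 (adjusted p 0.557), and its partner gene S100a8 read 298, 378 and 375 and 614, 550.1 and 638, higher without overlap (0.70, adjusted p 0.401). Of the 4 genes, 1 went the other way, lower in all 3 exposures, with every 20 h array below every 2 h array. The summed signal of the 4 genes was 2540 to 4775 at 2 h and 2958 to 7079 at 20 h. Of 22 macrophage and lysosome genes, 4 were higher and 2 lower, but 2 were higher with quantile normalization and 1 lower without the doubtful array. With the 600 µg/l arrays at 20 h left out, 1 was higher and 1 lower. Ctsl, a lysosomal protease gene, changed by 0.0068, -0.44 and -0.66, lower in smoke only, and Naaa, a lysosomal amidase gene, by 0.096, 0.32 and 0.23. Adgre1, the F4/80 gene on type B, changed by 0.78, 0.52 and 0.89 (0.65 over all exposures without the doubtful array). Its 2 h signals (163, 145 and 124) were all under the filter level, which it reached in later arrays only, so the size of its rise is a description. The summed signal of the list ranged from 63520 to 86443 at 2 h and from 67279 to 92537 at 20 h. The part of cell number in the fall of Ms4a7 was not tested.

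Some lymphocyte genes were higher at 20 h, and many of these genes are on type B. Of 12 T cell genes, 2 were higher, 0 lower and 7 higher in all 3 exposures, with a median of 0.18; without the doubtful array 1 was higher at that p. Cd3e, of the T cell receptor complex, read 331, 400.2 and 363 at 2 h and 714, 704 and 404 at 20 h, and Cd8a 177, 212 and 155 and 352, 263 and 221. On these probe sets all 20 h arrays lay above all 2 h arrays, by little at 600 µg/l, though the 2 h signals of Cd8a were all under the filter level and its sham change uses the doubtful array. Its other probe sets gave -0.091, 0.54 and 0.48 on type B and -0.31, 0.88 and 0.20 on type A, lower in sham. The changes of Cd3e and Cd8a were 0.52 and 0.31 without the doubtful array. Bank1, a B cell scaffold gene, read 981, 883 and 1135 at 2 h, 2174, 1804 and 1702 at 6 h and 2130.5, 2082 and 1660.2 at 20 h, a change of 0.93 (adjusted p 0.0556) and of 0.84 without the doubtful array (adjusted p 0.219). The CD20 gene Ms4a1 changed by 0.46, 0.56 and -0.023 on type B, and of 10 B and plasma cell genes 2 were higher at an unadjusted p under 0.05, or 1 without the doubtful array. Of 8 cytotoxic genes 1 was higher, the granzyme gene Gzmb on type B (0.92, 0.89 and -0.062), whose probe set on type A gave -0.10. Without both the doubtful array and the type B array labelled 300 µg/l at 2 h, the changes of Gzmb and Ms4a1 were -0.11 and -0.022. The summed T cell signal was 5753 to 6400 at 2 h and 6269 to 7900 at 20 h, and that of B and plasma cells 11540 to 12216 at 2 h and 12597 to 14037 at 20 h.

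Interferon-responsive genes had 4 of 22 members higher and 0 lower at an unadjusted p under 0.05. They included the guanylate-binding protein gene Gbp4 (166, 166 and 222 at 2 h, 386, 353 and 255 at 20 h on type B), Ifit2, which restrains translation of viral RNA (0.32, 0.58 and 0.13), and the signalling gene Stat2 (0.14, 0.50 and 0.18), whose dimmer probe set gave -0.17. The 2 h signals of Gbp4 were all under the filter level, which it reached in later arrays only. Of 8 MHC class II genes 1 was higher and 1 lower. RT1-Ba, the alpha chain gene of a rat class II molecule, had the largest change of any list member on type B, with signals of 5993, 6066 and 8902 at 2 h, 329.9, 4895 and 964 at 6 h and 579.6, 342 and 1162 at 20 h, a change of -3.37 (adjusted p 0.13) and of -3.02 without the doubtful array. Its 2 probe sets on type A gave 0.22 and 0.16, with signals of 1156 to 3145 over all arrays, so the array types disagree in direction for this gene. RT1-Bb, the beta chain gene on type A, read 2273, 1630.1 and 1649 and 2962, 2059 and 2742, and its second probe set gave -0.42.

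Housekeeping groups lay near 0. Cytosolic ribosomal protein genes had 1 of 22 higher, Rps29 (0.22, 0.072 and 0.11), with a median of 0.073. Respiratory chain genes had 0 of 29 and proteasome genes 0 of 26 higher, with 0 and 0 lower, and p53 and DNA damage genes 0 of 15 higher and 0 lower. Cell cycle genes had 2 of 24 higher and 2 lower, among them the microtubule regulator gene Stmn1 (0.19, 0.51 and 0.15) and the cyclin D1 gene Ccnd1 (-0.19, -0.19 and -0.27). Hypoxia and glycolysis genes had 1 of 19 higher, Ddit4, and ion and water transport genes 1 of 15 higher, Aqp5, and 1 lower, the sodium pump gene Atp1b1 (-0.070, -0.24 and -0.37).

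Markers of cells and tissues outside the alveolus were few, and most were dim. Of 6 measured heart muscle genes 1 was lower, the atrial myosin light chain gene Myl7, which read 392, 219 and 187 at 2 h and 192, 101 and 83.6 at 20 h; heart muscle also sheathes the large lung veins of rodents. The median change of the heart muscle list was -0.31, with -0.17, -0.33 and -0.30 in the 3 exposures. Of its 6 genes, 4 were lower in all 3 exposures, against 17.8% of all genes. For 3 of them every 20 h array lay below every 2 h array, against 8.52% of all genes. The summed heart muscle signal was 1692 to 1907 at 2 h and 1271 to 2005 at 20 h. Skeletal muscle genes had 0 of 4 lower and 0 higher, erythroid genes 0 of 4 higher, platelet genes 0 of 4 higher and mast cell genes 0 of 5 higher. Of 3 fat genes 1 was lower, of 3 thymus and lymph node genes 1 was higher (Cd8a), and of 3 cartilage and 2 oesophagus and thyroid genes none had an unadjusted p under 0.05 in limma over all exposures, with 0 passing after adjustment. The part of these tissues in the results was not tested.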

How the data were processed

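Lung RNA of 9 conditions was hybridised once to each of 2 array types. The authors deposited linear signal intensities. Their software was MAS5 (version not given), per the submitters' processing notes, and the trimmed mean was nearly the same on every array. Here log2(signal + 50) was modelled in R 4.3.3 by limma 3.58.1, whose eBayes step used an intensity trend, each type separately and over all 9 arrays, with exposure and recovery time as terms for the comparison over all exposures, and with smoke or sham by recovery time for the smoke comparison and the difference. The exposure term is the replicate block of this design. Probe sets had to reach the 40th percentile of their type in 3 arrays, control probe sets did not enter, and a probe set carried by both types was taken from type A. Of 15923 and 15333 probe sets on types A and B, 12789 and 7570 have 1 gene symbol, and the brightest tested probe set stands for a gene. Genes were named by rank among calls, as the up to 5 lowest adjusted p of a list, or from a fixed set of clock, smoke and hormone genes; Kif26b was named after its values were seen, as was the heat shock motif searched. The members and all 44 lists were chosen with earlier results of these data known. Alternatives were other scaling, pseudocounts, filters, error models, arrays left out and no block; those without the second doubtful array or without type B were chosen after seeing the data. Only the fit over all exposures was tested on simulated data, with independent noise and no difference between exposures. The smoke and difference fits were not tested in that way. Sequences are from RefSeq, and Cyp1a1 is named only. The number of arrays limits the precision.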

Additional observations from a re-analysis of the deposited data

Results flagged for a closer look

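Cyp1a1 is listed because its change from 2 h to 20 h in the smoke arrays differed from that in sham, by -4.72 on the log2 scale (adjusted p 0.000228, limma). Aldh3a1 is listed for the same reason, with a difference of -3.74 (adjusted p 0.0413). Both smoke exposures moved the same way for both genes, and the sham course of each rests on 1 array against 1. All sham signals of both genes were under the filter level of type A.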

How the results depend on the processing

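With 10 calls over all exposures, median scaling gave 21, a pseudocount of 200 gave 24, adjustment within each type 28, the 2 h and 20 h arrays alone 26 and no intensity trend 1. Without the exposure block the count was 22, and 9 of the 10 calls were kept. It was 0 in limma with no filter, without the doubtful array, without it and the type B array labelled 300 µg/l at 2 h, and without type B (3006, 1587, 1216 and 818 probe sets at an unadjusted p under 0.05), and it ranged from 0 to 18 with 1 condition left out. In the smoke arrays (10 calls) it was 5 with no filter, 16 with the 2 h and 20 h arrays alone and 3 to 14 with 1 condition left out. For the difference (2 calls) it was 4 with quantile normalization, with adjustment within each type and, where the fit covers type A only, without the doubtful array, without both B arrays and without type B. It was 1 with a pseudocount of 10, no filter, the 60th percentile filter, no intensity trend and the 2 h and 20 h arrays alone, and 1 to 2 with 1 condition left out; without sham at 2 h or 20 h no difference could be fitted. With a pseudocount of 200, 78 probe sets were 2-fold apart in sham, against 305. A larger pseudocount shrinks folds and a filter changes the number tested; the cause of the other shifts was not tested.

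Among named genes, Cyp1a1 passed in all 21 alternatives in the smoke arrays and all 19 of the difference, Nqo1 in all 21 in smoke, and Aldh3a1 in 9 of 18 of the difference. Changes over all exposures that turned sign had not passed. With median scaling Bhlhe40 was 0.017 and Sgk1 -0.0026. Without the doubtful array Bhlhe40 was 0.035, and without both B arrays Bhlhe40 was 0.20, Gzmb -0.11 and Ms4a1 -0.022. With 1 condition left out, the ranges were -0.054 to 0.37 for Bmal1, -0.073 to 0.39 for Npas2, -1.20 to 0.71 for Nr1d1, -1.02 to 0.080 for Nr1d2, -1.14 to 0.50 for Per3, -0.30 to 0.056 for Cry2, -0.55 to 0.83 for Dbp, -0.32 to 0.28 for Tef, -0.090 to 0.22 for Nfil3, -0.27 to 0.22 for Bhlhe40, -0.30 to 0.029 for Bhlhe41, -0.32 to 0.038 for Tsc22d3, -0.089 to 0.059 for Sgk1, -0.32 to 0.28 for Cxcl1 and -0.17 to 0.059 for Chia. For Bmal1, Nr1d1, Nr1d2, Per3, Tef, Bhlhe41 and Tsc22d3 the sign turned only without the sham arrays at 20 h.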
